A study of Homo sapiens with 12 samples.

Results

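The genes described here are 10 enzymes that oxidize or reduce aldehydes and ketones, namely the aldehyde dehydrogenases ALDH1A1, ALDH1A3, ALDH2, ALDH3A1 and ALDH3B1 and the aldo-keto reductases AKR1B1, AKR1B10, AKR1C1, AKR1C2 and AKR1C3. They were taken by symbol from the 58288 genes listed, and all 10 were found. RNA-Seq of polyadenylated RNA was carried out in FaDu cells, an established human line of head and neck squamous cell carcinoma (HNSCC), with and without STING, the innate immune adaptor encoded by TMEM173. STING WT cells carried Cas9 and a non-targeting gRNA, and STING KO cells, labelled STING-/-, carried Cas9 and a gRNA to STING. Both were made by lentiviral transduction and puromycin selection, and whether the KO cells were 1 clone or a pool is not given in the sources used here. Each genotype was unirradiated (0Gy) or had 4 daily fractions of 2 Gy (RT), which gave 4 groups of 3 libraries (12 in all), and the time from the last fraction to collection is not given in the sources used here. Expression is in TPM, transcript abundances scaled for transcript length and to a total of 1000000 per library, and read depth cannot be recovered from them. Nothing states that the replicates were separate cultures, so p-values measure only the spread between these libraries, which may be technical.

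Aldehyde dehydrogenases use NAD or NADP to oxidize aldehydes to acids, and aldo-keto reductases use NADPH to reduce aldehydes and ketones to alcohols. Together they clear the reactive aldehydes that arise when membrane lipids are oxidized, and they set the supply of signalling molecules such as retinoic acid, steroids and prostaglandins. High aldehyde dehydrogenase activity is widely used as a marker of stem-like cells in squamous carcinoma, and several aldo-keto reductases are known targets of the oxidative stress regulator NRF2.

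TMEM173 checked the genotype labels. It was listed at 21.1 to 23.5 TPM in the unirradiated WT libraries and at 5.18 to 6.96 TPM in the unirradiated KO libraries, and at 21.4 to 26.1 TPM in WT and 6.35 to 7.41 TPM in KO libraries after radiation. All 8 squamous epithelial markers examined (KRT5, KRT14, KRT6A, TP63, EPCAM, CDH1, SFN and PERP) had means of at least 72.2 TPM in every group. Of markers of other cell types, only COL1A1 of 5 for fibroblasts, CD68 of 4 for leukocytes, and CDH5 and VWF of 3 for endothelium reached a mean of 1 TPM. LUM was at 0 in every library.

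Near-identical members bear on how the values can be read, so their sequences are shown first. AKR1C1 and AKR1C2 both have coding sequences of 972 bases, which differ at 19 bases (98.0% identical), while AKR1C3 is 91.5% identical to AKR1C1. The stretch below, coding bases 103 to 162 in exon 2 of each gene (GENCODE release 29, GRCh38), holds 10 of the 19 differences, which are in capitals. It lies at chr10:4965932-4965991 on the plus strand in AKR1C1 and at chr10:5001604-5001663 on the minus strand in AKR1C2.
AKR1C1: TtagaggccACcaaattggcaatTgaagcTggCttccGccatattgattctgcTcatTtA
AKR1C2: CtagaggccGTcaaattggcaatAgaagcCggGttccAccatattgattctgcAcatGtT
Outside such stretches a read may not tell the genes apart. Of all windows of 100 bases along the longest coding transcript, 32.9% in AKR1C2, 17.4% in AKR1C1 and 4.98% in AKR1C3 also occur in a transcript of another gene, nearly all of them within this trio. The share was 6.21% for ALDH2 and 2.01% for AKR1B10, and 0% for the other 5 members. The transcripts of AKR1C2, AKR1C1 and AKR1C3 used here are 3756, 6705 and 1807 bases long, of which 972 are coding. The share of windows within the coding part alone was not computed. How the quantification split shared reads is not stated, so the levels of AKR1C1, AKR1C2 and AKR1C3 relative to each other are uncertain.

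Promoter windows, from 250 bases before to 50 after a start site, were present for 7 members (RefSeq, GRCh38.p14), all but ALDH2, ALDH3A1 and AKR1B10. The 250 upstream bases of ALDH1A1 and ALDH1A3, the retinaldehyde dehydrogenases, and of AKR1C1 and AKR1C2 are shown because the first pair had higher levels in STING KO cells while the second pair is alike in sequence but was listed at different levels. Capitals mark CCAAT or its complement ATTGG. They lie at chr9:72953054-72953303 (minus strand), chr15:100879581-100879830 (plus strand), chr10:4963165-4963414 (plus strand) and chr10:5003858-5004107 (minus strand), and each reads 5′ to 3′ along its gene.
ALDH1A1: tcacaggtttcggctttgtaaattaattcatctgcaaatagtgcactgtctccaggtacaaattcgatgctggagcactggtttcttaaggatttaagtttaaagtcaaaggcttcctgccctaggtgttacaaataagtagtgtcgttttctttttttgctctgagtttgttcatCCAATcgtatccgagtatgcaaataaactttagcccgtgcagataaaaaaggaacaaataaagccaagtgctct
ALDH1A3: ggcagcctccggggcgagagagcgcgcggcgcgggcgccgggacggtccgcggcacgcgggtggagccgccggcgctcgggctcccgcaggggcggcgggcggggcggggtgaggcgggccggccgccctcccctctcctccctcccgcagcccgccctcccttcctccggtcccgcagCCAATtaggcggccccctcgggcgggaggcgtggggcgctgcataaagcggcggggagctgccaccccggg
AKR1C1: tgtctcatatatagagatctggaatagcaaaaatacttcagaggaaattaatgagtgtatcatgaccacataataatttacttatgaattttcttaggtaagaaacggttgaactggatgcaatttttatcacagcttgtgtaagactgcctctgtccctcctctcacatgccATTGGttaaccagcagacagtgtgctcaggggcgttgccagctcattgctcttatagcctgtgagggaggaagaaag
AKR1C2: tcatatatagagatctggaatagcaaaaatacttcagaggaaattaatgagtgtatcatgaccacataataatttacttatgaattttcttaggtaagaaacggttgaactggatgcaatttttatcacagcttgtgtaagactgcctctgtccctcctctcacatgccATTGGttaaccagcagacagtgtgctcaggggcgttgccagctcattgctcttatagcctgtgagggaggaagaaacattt
The CCAAT motif begins 74 bases upstream of the start site in ALDH1A1, 71 in ALDH1A3, 77 in AKR1C1 and 81 in AKR1C2, and it also occurs in the windows of AKR1B1 and AKR1C3. On either strand it is present in 34.6% of the 35116 promoters of this length in the table. The whole windows of AKR1C1 and AKR1C2 are 93.5% identical, against 73.5% for AKR1C1 and AKR1C3 and 40.7% for ALDH1A1 and ALDH1A3. The core of the antioxidant response element bound by NRF2, TGACNNNGC (13.3% of all promoters), and the interferon-stimulated response element core, GAAA followed after any 2 bases by GAAA (3.57%), were found in no member window on either strand. At these shares few or none would be found among so few windows, and elements outside the windows would not be seen. The TATA box letters TATAAA (11.5% of all promoters on either strand) were found only in AKR1C3. There they lay on the strand opposite to the gene, which itself reads TTTATA, at position -26 from the start site. This was in the window at chr10:5048531-5048830 and not in the other AKR1C3 window.

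The members spanned more than 3 orders of magnitude in level. In unirradiated WT cells the mean TPM fell from ALDH1A3 at 955 through AKR1B1 at 186, ALDH3A1 at 125 and ALDH3B1 at 25.3 to AKR1C1 at 5.34, AKR1C3 at 2.65, ALDH1A1 at 2.45, ALDH2 at 1.42, AKR1B10 at 1.35 and AKR1C2 at 0.217. Neighbours in this order did not overlap in their 3 libraries, except AKR1C3 with ALDH1A1 and ALDH2 with AKR1B10. In unirradiated KO cells the order differed at the top, with ALDH3A1 (mean 214 TPM) above AKR1B1 (158 TPM) and the libraries of the pair not overlapping, and ALDH1A1 moved up to the fifth place at 5.58 TPM, where its libraries overlapped those of AKR1C1 at 5.33 TPM. After radiation AKR1B1 was again above ALDH3A1 in both genotypes.

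**Figure D1:**
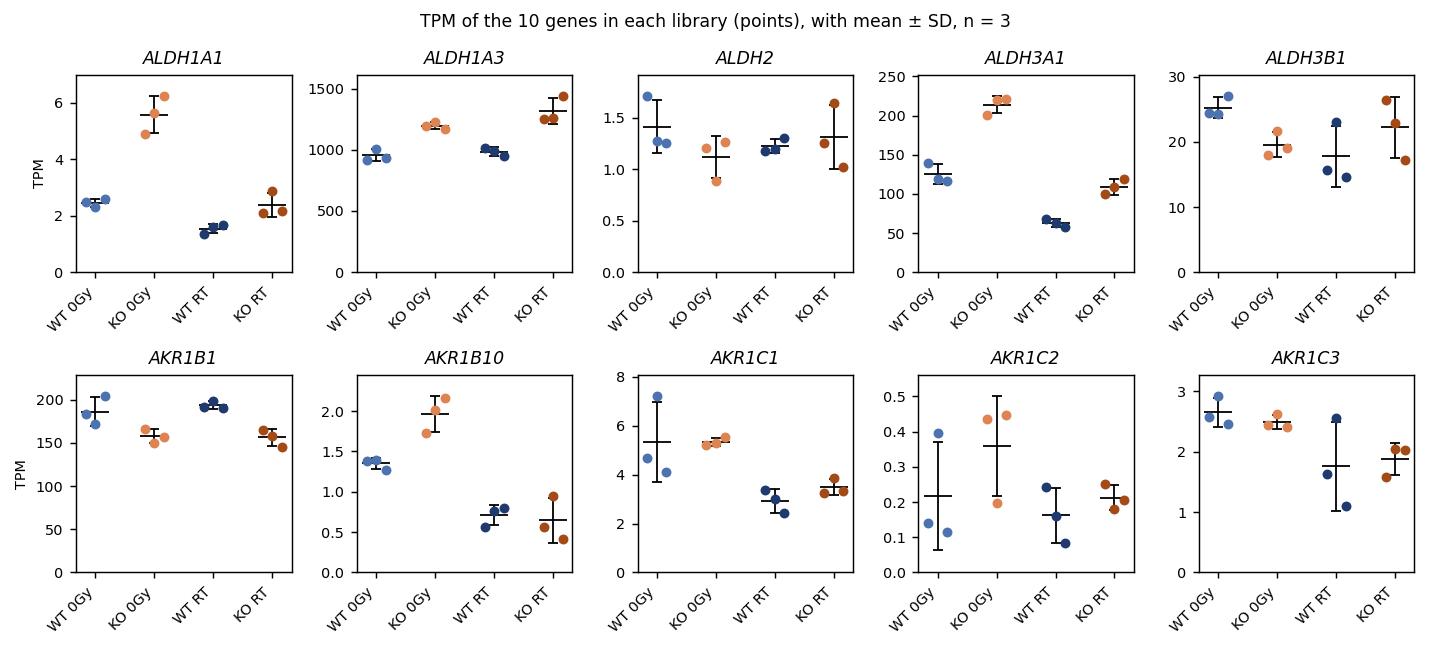
TPM of the 10 genes in each of the 12 libraries, 1 panel per gene with its own axis from 0, by genotype and treatment. Points are libraries, and bars are the mean ± SD (n = 3 per group). ALDH1A1 is highest in unirradiated KO cells (4.89 to 6.23 TPM), and ALDH3A1 is lower after radiation and higher in KO cells.

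ALDH1A3 made up most of the aldehyde dehydrogenase RNA. Summed over 19 ALDH genes, the level was 1583 to 1704 TPM in unirradiated WT libraries and 1927 to 1954 TPM in unirradiated KO libraries, and ALDH1A3 was 57.4% to 59.3% of it in WT and 60.5% to 62.6% in KO. After radiation the sum was 1476 to 1579 TPM in WT and 1858 to 2058 TPM in KO, and the share of ALDH1A3 was 64.2% to 64.4% and 66.9% to 70.1%. The KO sums lay above the WT sums in both arms without overlap, as did the shares. AKR1B1 was 46.7% to 61.3% of the summed TPM of 13 AKR genes in the 12 libraries, and ALDH1A1, the gene most often used as a marker of high aldehyde dehydrogenase activity, was at no more than 6.23 TPM in any library.

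Group differences were tested with limma on log2(TPM + 1) in 15973 genes, those that reached 1 TPM in at least 3 libraries, with a Benjamini-Hochberg adjusted p of 0.05 as the threshold. Of the 10 members 9 entered. AKR1C2 reached 1 TPM in no library and was left out, and AKR1B10 reached it only in the 6 unirradiated libraries, so it entered through the arm in which it was high. Log2 fold changes on this scale understate the change of genes at a few TPM, so ratios of mean TPM are given beside some of them. Those of such genes given without a ratio are understated too. In bulk RNA, fewer cells that express a gene and less RNA per cell cannot be told apart.

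Loss of STING in unirradiated cells came with higher RNA of 3 aldehyde dehydrogenases. ALDH1A1, ALDH1A3 and ALDH3A1 rose, against 0.463% of all tested genes that passed the threshold upward, and none of the 9 tested members fell, against 1.26% of all tested genes. KO and WT libraries did not overlap in 4 members that were higher in KO (these 3 and AKR1B10) and 2 that were lower (ALDH3B1 and AKR1B1), beside 8.51% and 12.1% of all tested genes. The median log2 fold change over the 9 members was 0.03, with 5 above 0, and that over all tested genes was -0.02. Without AKR1B10 the median of the members was -0.02.

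ALDH1A1 (ENSG00000165092.12; chromosome 9, 72900662 to 73080442, minus strand, GRCh38) makes retinoic acid from retinaldehyde. It was listed at 2.47, 2.30 and 2.59 TPM in the unirradiated WT libraries and at 4.89, 5.64 and 6.23 TPM in the unirradiated KO libraries. Every KO library was above every WT library, by a ratio of means of 2.28 (log2 fold change 0.93, SE 0.12, limma adjusted p = 0.00219). Genes annotated on the opposite strand overlap ALDH1A1 (the pseudogene CYP1D1P), ALDH1A3 (AC015712.7 and AC015712.2), ALDH3A1 (AC005722.3), ALDH3B1 (AC004923.4), AKR1C2 (AL391427.1) and, with a small RNA, AKR1C2 and AKR1C3, and the strand setting of the quantification is not stated. On the same strand AC015712.5 overlaps ALDH1A3, and the protein-coding AC002996.1 and MIR6761 overlap ALDH2.

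ALDH1A3 (ENSG00000184254.16; chromosome 15, 100877714 to 100916626, plus strand) carries out the same oxidation and was the most abundant member. Its TPM was 921, 1010 and 933 in WT against 1196, 1224 and 1173 in KO libraries. The groups did not overlap, and the KO mean was 1.25 times the WT mean (log2 fold change 0.33, SE 0.060, limma adjusted p = 0.0196). This call was lost when any of WT 0Gy replicates 1 and 3 or KO 0Gy replicates 1, 2 and 3 was left out (0.30 to 0.34, adjusted p = 0.0594 to 0.0908), without the filter on low values (adjusted p = 0.0661), in a fit of the 6 unirradiated libraries alone (adjusted p = 0.0567) and after quantile normalization (0.26, adjusted p = 0.0843).

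ALDH3A1 (ENSG00000108602.17; chromosome 17, 19737984 to 19748943, minus strand) oxidizes aromatic and medium-chain aldehydes, including products of lipid peroxidation, and is best known as an abundant protein of the cornea. Its TPM was 140, 119 and 117 in WT against 201, 220.1 and 221 in KO libraries. The lowest KO library was well above the highest WT library, and the ratio of means was 1.71 (log2 fold change 0.77, SE 0.093, limma adjusted p = 0.00167). The adjusted p of both ALDH1A1 and ALDH3A1 stayed under the threshold in all 18 alternative fits, at most 0.0262 and 0.0206.

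The other dehydrogenases did not pass. ALDH3B1 (ENSG00000006534.15; chromosome 11, 68008578 to 68029282, plus strand), which acts on lipid-derived fatty aldehydes, was at 24.4, 24.3 and 27.1 TPM in WT against 18.0, 21.7 and 19.0 TPM in KO libraries (log2 fold change -0.36, 95% interval -0.75 to 0.04, limma adjusted p = 0.403). These libraries did not overlap, but the gene passed in none of the 18 alternative fits (adjusted p 0.201 to 0.621), the lowest with the 6 unirradiated libraries alone. ALDH2 (ENSG00000111275.12; chromosome 12, 111766887 to 111817529, plus strand), the mitochondrial enzyme that removes acetaldehyde, was listed at only 0.888 to 1.71 TPM in the 12 libraries (KO against WT -0.19, 95% interval -0.48 to 0.11, limma adjusted p = 0.584).

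Among the reductases, AKR1B1 and AKR1B10 differed without overlap and in opposite directions, and neither passed. AKR1B1 (ENSG00000085662.13; chromosome 7, 134442350 to 134459284, minus strand), aldose reductase, which turns glucose into sorbitol, was at 183, 171 and 204 TPM in WT against 166, 150.4 and 157 TPM in KO libraries (log2 fold change -0.24, 95% interval -0.39 to -0.08, limma adjusted p = 0.151). AKR1B10 (ENSG00000198074.9; chromosome 7, 134527592 to 134541408, plus strand), a close relative that reduces retinaldehyde and aliphatic aldehydes, was at 1.39, 1.40 and 1.27 TPM in WT against 1.72, 2.01 and 2.16 TPM in KO libraries (0.33, 95% interval 0.03 to 0.63, limma adjusted p = 0.299). The AKR1C genes, which lie together on chromosome 10 and encode hydroxysteroid dehydrogenases, overlapped between genotypes.

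AKR1C1 (ENSG00000187134.13; chromosome 10, 4963253 to 4983283, plus strand), which inactivates progesterone, was at 4.69, 7.21 and 4.12 TPM in WT against 5.20, 5.27 and 5.51 TPM in KO libraries, a log2 fold change of 0.03 (95% interval -0.33 to 0.39). WT 0Gy replicate 2 stood above the others in this gene, and also had the highest AKR1C2 and AKR1C3 values of its group. AKR1C3 (ENSG00000196139.13; chromosome 10, 5035354 to 5107686, plus strand), which forms testosterone and prostaglandin F, was at 2.58, 2.92 and 2.46 TPM in WT against 2.44, 2.63 and 2.40 TPM in KO libraries, a log2 fold change of -0.06 (95% interval -0.44 to 0.31). AKR1C2 (ENSG00000151632.17; chromosome 10, 4987400 to 5018031, minus strand), which inactivates dihydrotestosterone, was at 0.141, 0.395 and 0.116 TPM in WT against 0.436, 0.196 and 0.447 TPM in KO libraries, which overlapped (two-sided exact permutation test, p = 0.2, where 0.1 is the smallest possible).

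**Figure D2:**
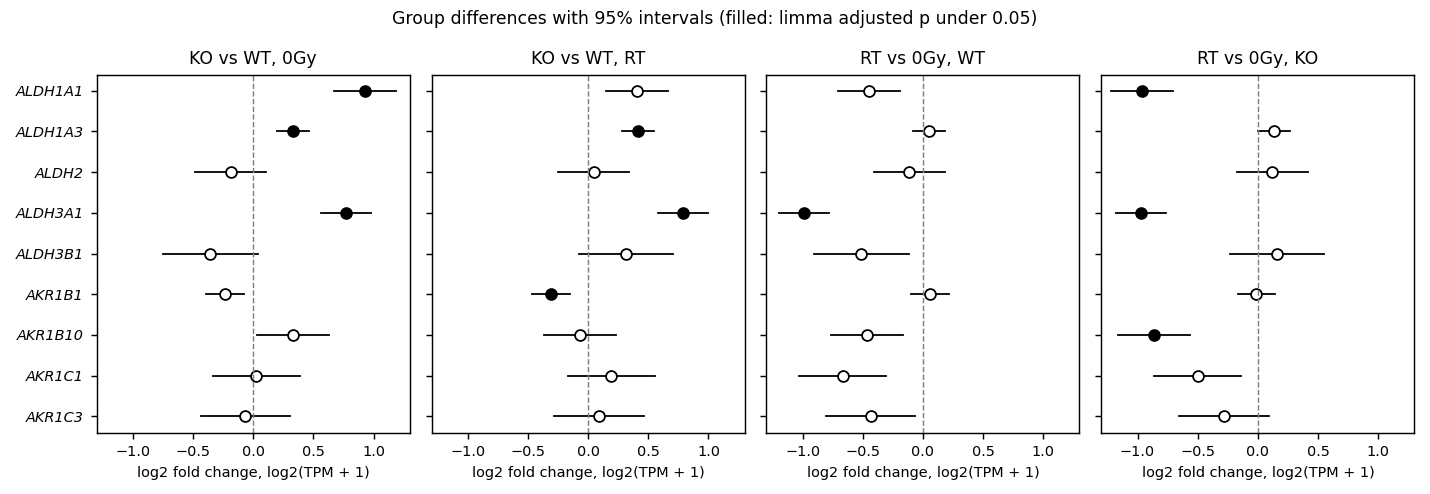
Log2 fold changes on the log2(TPM + 1) scale of the 9 tested members in the 4 comparisons, with 95% intervals from limma and the adjusted p threshold marked by filled points. ALDH3A1 is filled in all 4 panels, and ALDH1A1 in KO against WT without radiation and in RT against 0Gy in KO cells. AKR1B10 is also filled in RT against 0Gy in KO cells, but it passed the filter only through its unirradiated libraries.

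The comparison of genotypes was repeated in irradiated cells. ALDH1A3 and ALDH3A1 rose in KO cells and AKR1B1 fell, against 0.927% of all tested genes that passed upward and 2.66% that passed downward. Libraries did not overlap in ALDH1A1, ALDH1A3 and ALDH3A1, higher in KO (9.62% of all tested genes), and in AKR1B1, lower in KO (14.5%). The median log2 fold change over the 9 members was 0.19 (0.25 without AKR1B10), with 7 above 0, and -0.02 over all tested genes. The libraries of the irradiated arm are separate from those of the unirradiated arm, although all 12 share the estimate of spread. Both arms compared the same WT and KO lines. A difference between these lines other than STING would recur in both arms and cannot be told apart from STING loss.

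ALDH3A1 was at 68.2, 62.5 and 57.2 TPM in irradiated WT and 99.4, 109 and 119 TPM in irradiated KO libraries. The groups were again apart, with a ratio of means of 1.74 (log2 fold change 0.79, SE 0.093, limma adjusted p = 0.000852), close to the 0.77 of unirradiated cells. ALDH1A3 was at 1017, 992 and 948 TPM in WT against 1250, 1257 and 1442 TPM in KO libraries, a ratio of 1.34 (log2 fold change 0.41, SE 0.060, limma adjusted p = 0.00366). For both genes the call held in all 18 alternative fits, with adjusted p of at most 0.0146 for ALDH3A1 and 0.0462 for ALDH1A3.

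ALDH1A1 was at 1.35, 1.59 and 1.68 TPM in irradiated WT and 2.10, 2.87 and 2.15 TPM in irradiated KO libraries. The KO libraries were all higher, with a ratio of means of 1.54, but the log2 fold change of 0.41 (SE 0.12, 95% interval 0.15 to 0.66) did not pass (limma adjusted p = 0.093, 0.0681 to 0.238 over the alternative fits). AKR1B1 was at 191, 199 and 190.1 TPM in WT against 165, 158 and 145 TPM in KO libraries. These did not overlap, and the log2 fold change was -0.31 (SE 0.070, limma adjusted p = 0.0412), a call that was lost in 13 of 18 alternative fits (adjusted p up to 0.134), among them those without WT RT replicate 1, 2 or 3, KO RT replicate 2 or 3, WT 0Gy replicate 1 and KO 0Gy replicate 2 or 3 (-0.32 to -0.26).

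For the other members the irradiated genotypes overlapped. ALDH3B1 was at 15.7, 23.1 and 14.5 TPM in WT against 26.4, 22.9 and 17.3 TPM in KO libraries (0.32, 95% interval -0.08 to 0.71), or 0.18 without KO RT replicate 1 and 0.51 without WT RT replicate 2, with opposite sign to the unirradiated difference. AKR1B10 was below 1 TPM in all 6 irradiated libraries, at 0.565, 0.764 and 0.800 TPM in WT against 0.560, 0.953 and 0.420 TPM in KO, a log2 fold change of -0.07 (95% interval -0.36 to 0.23) that was 0.02 after quantile normalization. ALDH2, AKR1C1 and AKR1C3 had log2 fold changes of 0.05, 0.19 and 0.09 with limma adjusted p of 0.594 or more. AKR1C2 was at 0.0849 to 0.250 TPM in the 6 libraries.

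Radiation was compared with no radiation within each genotype. The irradiated KO and WT groups are set against the same unirradiated groups that entered the genotype comparison, so a high unirradiated KO value enters both. AKR1B10 entered the test only through its unirradiated libraries and could be called only as lower after radiation, so it is left out of the counts here and given apart. In WT cells ALDH3A1 was the only one of the other 8 tested members to fall, against 1.50% of all tested genes that passed downward, and no member rose, against 2.24%. Libraries did not overlap in 4 members that were lower after radiation (ALDH1A1, ALDH3A1, ALDH3B1 and AKR1C1), beside 10.1% of all tested genes, and in no member that was higher, beside 14.7%. In KO cells ALDH1A1 and ALDH3A1 fell, against 1.70%, and no member rose, against 2.00%. There, libraries of 4 members were lower without overlap (ALDH1A1, ALDH3A1, AKR1C1 and AKR1C3), beside 10.6%, and those of ALDH1A3 were higher, beside 13.7%.

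Over these 8 members the median log2 change with radiation was -0.44 in WT and -0.15 in KO cells (-0.45 and -0.28 with AKR1B10), where that of all tested genes was 0.02 in each. ALDH3A1 had the largest decrease of the members in WT cells. Its mean went from 125 ± 12.8 TPM to 62.6 ± 5.53 TPM in WT (SD, n = 3 each), which is -0.99 on the log2 scale (SE 0.093, limma adjusted p = 0.000385). In KO cells it went from 214 ± 11.3 TPM to 109 ± 9.89 TPM, a ratio of 0.509 (log2 fold change -0.97, SE 0.093, limma adjusted p = 0.000552). All 6 irradiated libraries were below their unirradiated counterparts, and the irradiated KO libraries reached 119 TPM, between the lowest and the highest unirradiated WT library.

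ALDH1A1 fell in KO cells, from 5.58 ± 0.669 TPM to 2.38 ± 0.432 TPM (SD, n = 3 each), a ratio of 0.426 (log2 fold change -0.97, SE 0.12, limma adjusted p = 0.00172). In WT cells it was at 2.45 ± 0.143 TPM and 1.54 ± 0.169 TPM, a ratio of 0.627, with the libraries apart and a log2 fold change of -0.45 (SE 0.12, 95% interval -0.70 to -0.19) that did not pass (limma adjusted p = 0.0666, and 0.0445 after quantile normalization). The irradiated KO libraries (2.10 to 2.87 TPM) overlapped the unirradiated WT libraries (2.30 to 2.59 TPM). AKR1B10 went in KO cells from 1.97 ± 0.222 TPM to 0.645 ± 0.276 TPM, a ratio of 0.328 (log2 fold change -0.86, SE 0.13). Its limma adjusted p was 0.0145 without the filter on low values, which had let it in through its high arm, 0.00709 with the filter and 0.0775 with only the 6 KO libraries in the fit. In WT cells its ratio was 0.524, with a log2 fold change of -0.46 (95% interval -0.76 to -0.17, limma adjusted p = 0.0953, and 0.0468 after quantile normalization). With a pseudocount of 0.1 the log2 fold changes of AKR1B10 were -1.53 in KO and -0.86 in WT cells.

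The AKR1C genes were lower on average in irradiated cells, and those that were tested, AKR1C1 and AKR1C3, did not pass. AKR1C1 was at 2.42 to 3.38 TPM in irradiated WT cells against 4.12 to 7.21 TPM without radiation (log2 fold change -0.67, SE 0.16, limma adjusted p = 0.0516). Without WT 0Gy replicate 3 this was -0.81 with an adjusted p of 0.0371, and it also passed after median-of-ratios scaling (-0.68, adjusted p = 0.0402), quantile normalization (-0.69, adjusted p = 0.0386) and a pseudocount of 0.1 (-0.82, adjusted p = 0.0494). In KO cells AKR1C1 went from 5.20 to 5.51 TPM down to 3.25 to 3.87 TPM without overlap (-0.50, SE 0.16, limma adjusted p = 0.129, and 0.042 without WT 0Gy replicate 2). AKR1C3 had log2 fold changes of -0.44 in WT, where the libraries overlapped, and -0.28 in KO, where they did not (limma adjusted p = 0.203 and 0.425). Ratios of mean TPM with radiation were 0.549 in WT and 0.654 in KO cells for AKR1C1, and 0.664 and 0.755 for AKR1C3. The summed TPM of the trio was 6.69 to 10.5 TPM in unirradiated WT, 8.08 to 8.36 TPM in unirradiated KO, 3.61 to 5.70 TPM in irradiated WT and 5.07 to 6.09 TPM in irradiated KO libraries. These sums were lower after radiation without overlap in each genotype and overlapped between genotypes in each arm.

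The remaining tested members did not pass with radiation in either genotype, and AKR1C2 was not tested. ALDH1A3 had log2 fold changes of 0.05 in WT (95% interval -0.09 to 0.18) and 0.13 in KO cells (95% interval 0.00 to 0.27, limma adjusted p = 0.273), where all 3 irradiated libraries were higher. For AKR1B1 they were 0.06 (95% interval -0.10 to 0.22) and -0.01 (95% interval -0.17 to 0.14), with overlapping libraries. ALDH3B1 had log2 fold changes of -0.51 in WT, where the libraries did not overlap (SE 0.18, limma adjusted p = 0.159), and 0.16 in KO (limma adjusted p = 0.703), and ALDH2 of -0.11 and 0.12. AKR1C2 was at 0.116 to 0.395 TPM without and 0.0849 to 0.242 TPM with radiation in WT, and at 0.196 to 0.447 and 0.179 to 0.250 TPM in KO libraries, which overlapped in both genotypes.

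Whether radiation acted on the members to a different extent in the 2 genotypes was tested as an interaction, the change in KO minus that in WT. It passed for 0 of the 9 members in limma, beside 0.0188% of all tested genes, and for 2 of them at an unadjusted p under 0.05, beside 6.61% of all tested genes. These were ALDH1A1, with -0.52 (SE 0.16, unadjusted p = 0.00965, adjusted p = 0.674), and ALDH3B1, with 0.67 (SE 0.25, unadjusted p = 0.0227, adjusted p = 0.734). For ALDH3A1 the interaction was 0.02 (95% interval -0.27 to 0.31).

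The other genes of both families were examined next. Of the 14 other ALDH genes 11 were tested, and of the 8 other AKR genes 2, and none of these passed for KO against WT in unirradiated cells. In irradiated cells ALDH3B2, a relative of ALDH3B1 that acts on long-chain aldehydes, rose in KO from 11.3 ± 1.01 to 15.7 ± 1.66 TPM (log2 fold change 0.44, limma adjusted p = 0.0391), and ALDH1B1, a mitochondrial enzyme related to ALDH2, fell from 51.8 ± 0.850 to 41.7 ± 1.65 TPM (-0.31, limma adjusted p = 0.0157). With radiation ALDH3B2 fell in both genotypes (-0.51 in WT and -0.48 in KO, limma adjusted p = 0.0239 and 0.0298), and ALDH3A2, the fatty aldehyde dehydrogenase, fell in WT from 160.3 ± 14.5 to 108 ± 5.06 TPM (-0.56, limma adjusted p = 0.0169). The calls of ALDH3B2 were lost in 12 of 18 alternative fits for KO against WT and in 6 and 8 for radiation, those of ALDH1B1 in 5 and of ALDH3A2 in 4. Of all tested genes 0.927% rose and 2.66% fell in irradiated KO against WT cells, and 1.50% and 1.70% fell with radiation in WT and KO. The median log2 change of the 11 genes was 0.01 and 0.08 for KO against WT without and with radiation, and -0.03 and -0.07 for radiation in WT and KO.

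Of 18 genes of the retinoid pathway, which supplies and uses the substrate and product of ALDH1A1 and ALDH1A3, 14 were tested. None passed for KO against WT in either arm, where the medians were 0.06 and 0.07 and all 14 values lay between -0.28 and 0.53. With radiation 2 fell and none rose, in WT as in KO cells, beside 1.50% and 1.70% of all tested genes that fell. Of the 14 genes 7 were above 0 and 7 below 0 with radiation in each genotype, with medians of 0.03 in WT and 0.02 in KO cells. DHRS3, which turns retinaldehyde back into retinol, fell from 38.4 ± 0.381 to 27.1 ± 1.14 TPM in WT (-0.49, limma adjusted p = 0.00393) and from 42.2 ± 1.84 to 28.1 ± 2.62 TPM in KO cells (-0.57, limma adjusted p = 0.00172). RXRA, the shared partner of the retinoic acid receptors, fell from 134 ± 5.33 to 98.5 ± 1.44 TPM in WT (-0.44, limma adjusted p = 0.000668) and from 153 ± 3.11 to 110 ± 3.99 TPM in KO (-0.48, limma adjusted p = 0.000381).

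All 17 genes of the NRF2 battery were tested, the oxidative stress genes to which AKR1B10 and the AKR1C genes are usually counted. For KO against WT 1 fell in each arm and none rose. Of all tested genes 1.26% fell and 0.463% rose without radiation, and 2.66% fell and 0.927% rose with it. The gene that fell was SLC7A11, the cystine transporter, with a mean without radiation of 28.7 ± 1.49 TPM in WT cells against 22.2 ± 0.295 TPM in KO cells (-0.36, limma adjusted p = 0.0189) and after radiation of 20.3 ± 0.680 against 15.8 ± 1.20 TPM (-0.35, limma adjusted p = 0.0149). These calls were lost in 6 of 18 alternative fits without radiation (adjusted p up to 0.0833), among them those without WT 0Gy replicate 1 or 2 or KO 0Gy replicate 1, 2 or 3, and in 3 with radiation (up to 0.101), among them those without WT RT replicate 2 or 3. With radiation SLC7A11 (-0.48 in WT and -0.47 in KO) and ME1 (-0.19 and -0.19), the NADPH-forming malic enzyme, fell in both genotypes. GCLC, the catalytic subunit of glutathione synthesis, fell in WT (-0.65, limma adjusted p = 0.0078). The medians of the 17 genes were 0.08 and 0.07 for KO against WT and -0.12 and -0.17 for radiation. Of 14 other carbonyl and alcohol enzymes 9 were tested, and only ADH1C, an alcohol dehydrogenase, passed, falling with radiation in WT (-0.61, limma adjusted p = 0.034) and KO cells (-0.61, limma adjusted p = 0.0324). With radiation 1.50% of all tested genes fell in WT and 1.70% in KO cells. The calls of ADH1C and ME1 were each lost in 7 to 9 of 18 alternative fits.

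**Figure D3:**
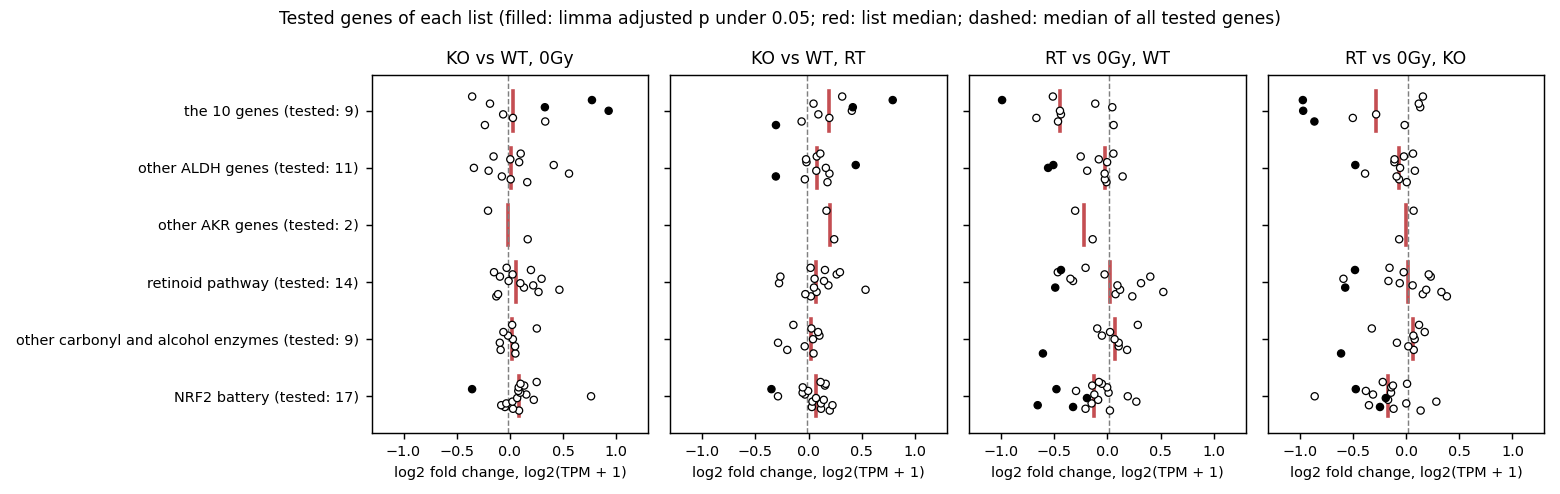
Log2 fold changes on the log2(TPM + 1) scale of the tested genes of 6 lists in the 4 comparisons. Each point is a gene, filled where its limma adjusted p is under 0.05, the red bar is the list's median, and the dashed line is the median of all tested genes. The median of the 9 tested genes of interest lies left of the dashed line in both radiation panels (-0.45 in WT and -0.28 in KO cells). Without AKR1B10, which passed the filter only through its unirradiated libraries, this median is -0.44 in WT and -0.15 in KO cells.

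The summed level of the 8 squamous epithelial markers, most of it KRT5, was higher in KO libraries in both arms, as were ALDH1A1, ALDH1A3 and ALDH3A1. The sum was 4439 to 4925 TPM in WT and 5144 to 6824 TPM in KO libraries without radiation, and 3896 to 4368 TPM in WT and 4563 to 5456 TPM in KO libraries with it. Of the 8 markers 4 were above 0 and 4 below 0 for KO against WT without radiation (median 0.05), and 6 and 2 with it (median 0.11), with TP63 at -0.11 and -0.33. KRT5 did not pass in either arm (0.52 and 0.54, limma adjusted p = 0.162 and 0.107), while KRT14 rose in unirradiated KO cells (0.24, limma adjusted p = 0.0217), SFN fell in irradiated KO cells against WT (-0.21, limma adjusted p = 0.0378) and with radiation in KO cells (-0.28, limma adjusted p = 0.0105), and EPCAM rose with radiation (0.15 in WT and 0.18 in KO). CDH5 rose with radiation, to 15.0 ± 0.321 TPM in WT (0.61, limma adjusted p = 0.0285) and 17.3 ± 2.28 TPM in KO (0.61, limma adjusted p = 0.0261), while PECAM1 had a mean of at most 0.0493 TPM in each group. The summed level of the 3 endothelial markers was 11.5 to 15.9 TPM in unirradiated and 18.3 to 23.9 TPM in irradiated libraries. That of the 4 leukocyte markers, nearly all of it CD68, was 16.3 to 22.2 TPM in unirradiated and 24.5 to 31.2 TPM in irradiated WT libraries, and 14.7 to 24.7 and 17.2 to 25.0 TPM in KO libraries. That of the 5 fibroblast markers, nearly all of it COL1A1, was 6.34 to 9.29 TPM in the 12 libraries. These calls were lost in 7 of 18 alternative fits for KRT14, 13 and 1 for SFN in KO against WT and with radiation, 16 and 8 for EPCAM in WT and KO, and 8 and 7 for CDH5. Their part in the differences of the members was not tested.

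The genes whose pattern was most like that of ALDH1A1 were sought among all tested genes, by the root mean square difference of log2(TPM + 1), centred on each gene's own mean, over the 12 libraries. They were WNT10A (0.202), WNT9A (0.214), ELF3 (0.218), NOTCH3 (0.222) and TGM1 (0.225), where the median over all other tested genes was 0.558 and a flat gene would be at 0.513. WNT10A and WNT9A are secreted ligands, ELF3 is an epithelial transcription factor, NOTCH3 is a receptor, and TGM1 is the transglutaminase of the cornified envelope. In each of them the group means had the order of ALDH1A1 at its ends, highest in unirradiated KO and lowest in irradiated WT cells. ALDH1A1 stood further apart from them in unirradiated cells, with a KO to WT log2 fold change of 0.93 against 0.39 to 0.53. On the log2(TPM + 1) scale its radiation effect in WT cells, -0.45, was smaller in size than theirs (-0.80 to -0.52). This scale understates the change of ALDH1A1, which was at a few TPM, and its log2 ratio of mean TPM was -0.67. A smaller effect of radiation on ALDH1A1 than on these genes in WT cells is therefore not shown.

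**Figure D4:**
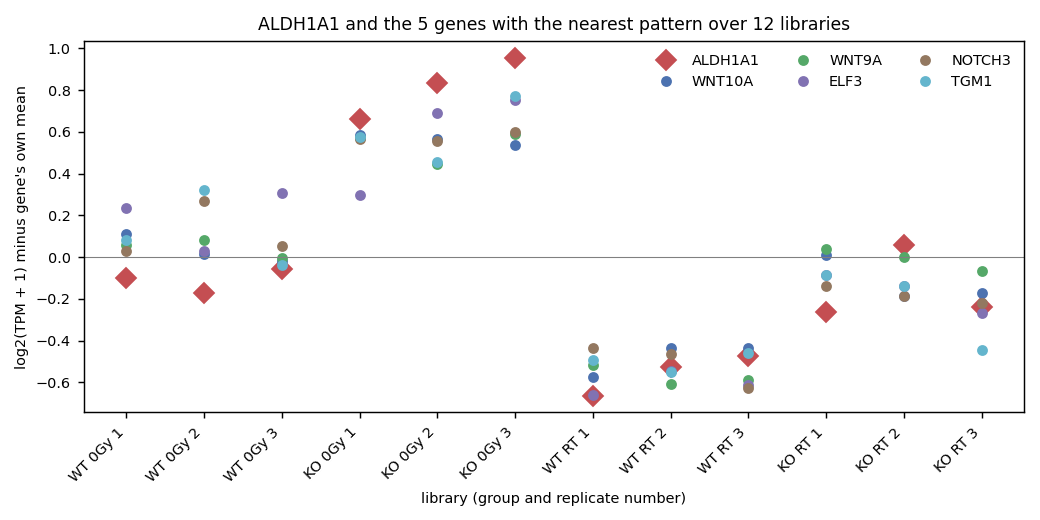
ALDH1A1 (diamonds) and the 5 tested genes nearest to it (circles) in each of the 12 libraries, as log2(TPM + 1) minus the gene's own mean. In all 6 genes the unirradiated KO libraries lie above 0 and the irradiated WT libraries below 0, a likeness by which the 5 genes were chosen.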

How the data were processed

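The authors deposited TPM for each gene and library, after paired-end sequencing of polyadenylated RNA. The submitters' processing notes name HISAT2, StringTie, DESeq2 and hg38, and the annotation release, strand setting and handling of shared reads are not given in the sources used here. Columns were tied to samples by their names. Those marked NT2 (the study's non-targeting gRNA 2) were taken as WT and the only other prefix as KO, with TMEM173 as the check. Because the values are TPM, which keep no depth, no counting error could be given, and the count test of the study's methods was replaced by limma 3.58.1 (R 4.3.3; lmFit with 4 group means on all 12 libraries, contrasts.fit, eBayes with trend) on log2(TPM + 1). Genes needed a TPM of at least 1 in at least 3 libraries (15973 of 58288, with 25770 at 0 throughout). P-values are two-sided and Benjamini-Hochberg adjusted over the tested genes. The code was tested on simulated data. Single values were compared by two-sided exact permutation tests, whose smallest p for 3 against 3 is 0.1. Percentages of all tested genes beside a count of members give the background share under the same rule.

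The members and gene lists were chosen with earlier results of these data known. Genes named are the 10 members, TMEM173, list genes past the threshold in any contrast, and the 5 nearest to ALDH1A1. KRT5, TP63, CD68, COL1A1, VWF, LUM and PECAM1, markers of the lists, were named after their values were seen. Coordinates and transcripts are from GENCODE release 29 (GRCh38), where all 10 member identifiers matched with their version, and promoters from RefSeq (GRCh38.p14). Fits were repeated without the filter, with a pseudocount of 0.1, median-of-ratios factors, quantile normalization, with the replicate number as a block, with only the libraries compared, and with each library left out in turn. No batch or date is in the labels. Within groups, Pearson's r across genes, which are not independent replicates, was 0.983 to 0.987. The values of 1 listed gene are not reported here.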

Additional observations from a re-analysis of the deposited data

How the results depend on the processing

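Of the 810 comparisons of a member's log2 fold change with an alternative fit (9 members, 5 contrasts, 18 alternatives), 766 kept their direction and their side of the threshold, 23 lost the call, 7 gained it and 14 changed sign, all of the last in differences that had not passed. The number of members called stayed within 1.5 times except for radiation in WT cells, where 1 became 2 with a pseudocount of 0.1 or median-of-ratios factors, 4 with quantile normalization, and 1 to 2 with a library left out. AKR1B10, which passed the filter only through its unirradiated libraries, is kept in these counts and is 1 of the 4. Over all tested genes, calls for radiation in WT cells were 565 with a pseudocount of 0.1, 606 with median-of-ratios factors and 613 with quantile normalization, in place of 597. Over all genes, fitting only the libraries compared gave 103 calls in place of 276 for KO against WT without radiation, 252 in place of 573 with radiation, 166 in place of 597 for radiation in WT and 195 in place of 590 in KO cells. Fewer libraries entered the spread in these fits, and why the counts were lower was not tested. Leaving out 1 library gave 172 to 292, 313 to 542, 242 to 526, 268 to 553 and, for the interaction, 1 to 9 in place of 3. The interaction had 7 calls without the filter. Same-numbered libraries did not deviate together across all tested genes (18 pairs, r from -0.060 to 0.064). Pairing that affects few genes would not show in this r. With the replicate number as a block the counts were 378 for KO against WT with radiation, 315 and 359 for radiation in WT and KO and 1 for the interaction, and the calls of ALDH1A3 without radiation (adjusted p = 0.064) and AKR1B1 with radiation (adjusted p = 0.0843) were lost; the cause was not tested. Median-of-ratios factors moved the share of calls that were higher from 26.8% to 37.6% for KO against WT without radiation, from 59.8% to 49.5% for radiation in WT and from 54.1% to 41.7% in KO cells. The differences that changed sign were that of AKR1B10 in irradiated KO against WT (0.0173 with quantile normalization) and, with a library left out, those of AKR1C1 without radiation (-0.112 to 0.229) and of ALDH2 (-0.0560 to 0.135), AKR1B10 (-0.197 to 0.0329) and AKR1C3 (-0.0885 to 0.291) with radiation in KO against WT, of AKR1B1 (-0.0538 to 0.0384) with radiation in KO and TMEM173 (-0.0334 to 0.103) in WT cells, and of the interactions of ALDH3A1 (-0.0621 to 0.0837), AKR1C1 (-0.0349 to 0.306) and AKR1C3 (-0.0245 to 0.355). TPM keep no depth, so for AKR1C2, AKR1B10 and ALDH2, near or below 1 TPM, the reads behind a value are unknown and small differences were not detectable.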
